A study of Homo sapiens with 12 samples.

Results

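Genes of DNA repair and of the DNA damage checkpoint were followed in 2 human lung adenocarcinoma cell lines, PC9 and HCC827, after 8 days in erlotinib or in its solvent, DMSO. The list held 47 genes, chosen by name for their roles: 11 of homologous recombination, 4 of end resection, 10 of the Fanconi pathway, 5 of mismatch repair, 7 of the checkpoint, 5 of end joining and 5 DNA polymerases. Of these, 41 had a probe set annotated to 1 gene symbol alone, out of 19775 genes with such a probe set, and all 41 passed the filter on low signal that left 13185 genes. BRCA2, RBBP8, FANCA, FANCD2, PMS2 and ATRIP were not analysed here. RNA was read on 12 Affymetrix HG-U133 Plus arrays, 3 for each of 4 groups: PC9 in 2 µM erlotinib, PC9 in DMSO, HCC827 in 2 µM erlotinib and HCC827 in DMSO. Erlotinib inhibits the kinase of the epidermal growth factor receptor, and both lines carry an activating mutation of that receptor. All groups grew in RPMI with 10% fetal bovine serum, renewed once, after 4 days. The labels number 3 replicates in each group and do not say that they were separate cultures, so p-values measure the spread between these arrays, which may be technical. They also give different platings: flasks holding more cells for erlotinib, against dishes holding fewer for DMSO, although the design text names flasks for all. Plating and drug cannot be told apart in these data.

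Homologous recombination copies an intact sister chromatid to mend a broken one, so it works mainly once DNA has been replicated, whereas end joining ligates broken ends at any stage of the cell cycle. The Fanconi pathway undoes crosslinks at stalled forks, mismatch repair corrects copying errors, and translesion polymerases copy past damage that stops the replicative ones. ATM and ATR are the kinases that sense breaks and stalled forks and signal to CHEK2 and CHEK1. Many of these genes are transcribed in the S phase by E2F factors, and their transcripts are therefore known to be low in cells that do not divide.

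Promoters of 5 of the genes are shown for orientation, each 300 bases around the start of transcription. They are those of CLSPN, which had the largest fall of the list, in HCC827, of EXO1, which fell in both, of MSH3, which did not pass the test in either, of ATM, which rose in PC9, and of FANCF, which rose in both. Capitals mark the letters TTTCCCGC, TTTCGCGC, TTTGCCGC or TTTGGCGC, on either strand, which resemble the E2F motif. Sequences are from RefSeq, build GRCh38.p14, read 5′ to 3′ along the gene's strand. They lie at chr1:35769929-35770228, minus strand (CLSPN), chr1:241847954-241848253, plus strand (EXO1), chr5:80654402-80654701, plus strand (MSH3), chr11:108222817-108223116, plus strand (ATM) and chr11:22625774-22626073, minus strand (FANCF).
CLSPN: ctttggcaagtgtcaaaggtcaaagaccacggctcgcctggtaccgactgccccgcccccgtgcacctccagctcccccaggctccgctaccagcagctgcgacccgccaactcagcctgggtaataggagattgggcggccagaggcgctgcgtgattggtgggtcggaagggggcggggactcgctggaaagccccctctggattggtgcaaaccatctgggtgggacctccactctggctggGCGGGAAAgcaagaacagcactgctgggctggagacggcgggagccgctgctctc
EXO1: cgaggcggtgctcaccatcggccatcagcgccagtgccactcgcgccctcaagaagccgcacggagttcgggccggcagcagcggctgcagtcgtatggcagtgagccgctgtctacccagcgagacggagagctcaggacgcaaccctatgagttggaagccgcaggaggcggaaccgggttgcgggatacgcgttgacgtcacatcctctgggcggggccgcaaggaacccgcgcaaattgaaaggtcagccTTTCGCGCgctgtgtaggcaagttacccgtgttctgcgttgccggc
MSH3: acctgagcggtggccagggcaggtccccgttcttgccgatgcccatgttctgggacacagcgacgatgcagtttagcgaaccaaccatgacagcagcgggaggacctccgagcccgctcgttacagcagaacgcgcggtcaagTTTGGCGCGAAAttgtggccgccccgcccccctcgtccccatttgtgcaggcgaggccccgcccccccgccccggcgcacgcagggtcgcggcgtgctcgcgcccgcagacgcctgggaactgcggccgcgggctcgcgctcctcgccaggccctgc
ATM: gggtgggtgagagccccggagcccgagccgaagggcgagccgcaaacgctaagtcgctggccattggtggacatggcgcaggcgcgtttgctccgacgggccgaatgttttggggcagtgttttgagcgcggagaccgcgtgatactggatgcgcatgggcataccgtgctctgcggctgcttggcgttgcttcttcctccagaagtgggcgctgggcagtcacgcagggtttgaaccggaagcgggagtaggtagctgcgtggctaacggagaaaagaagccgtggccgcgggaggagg
FANCF: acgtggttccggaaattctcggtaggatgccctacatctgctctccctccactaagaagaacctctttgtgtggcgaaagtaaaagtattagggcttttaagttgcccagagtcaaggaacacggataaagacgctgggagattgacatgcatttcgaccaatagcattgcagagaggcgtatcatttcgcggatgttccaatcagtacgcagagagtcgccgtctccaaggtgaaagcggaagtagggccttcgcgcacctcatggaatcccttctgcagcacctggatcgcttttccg

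CLSPN and EXO1 each held 1 match close to the start, MSH3 held 2 that overlap, and the promoters of ATM and FANCF held no match in this window. Of the 42 listed genes with a promoter in the table, 11 held a match (26.2%), compared with 555 of 10692 promoters of genes tested (5.19%). The 42 include the 6 genes not analysed here, of which FANCA, FANCD2 and PMS2 held a match, so the 2 sets are not quite alike. Within the list the match was present in 4 of 19 genes lower in both lines (21.1%) and in 4 of 17 other measured genes (23.5%). Those others include XRCC2 and MSH6, which held a match and passed as lower in PC9 alone. This grouping therefore cannot show whether the match goes with a fall. The letters CCAAT, on either strand, were in 47.6% of the listed promoters and in 36.6% of those of genes tested. The letters TTTGAA, which resemble the cell cycle homology region, were in 9.52% of the listed promoters and in 10.1% of those of genes tested. A match is a description of the letters and not a bound site.

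Signals are the authors' MAS5 values, on a linear scale whose trimmed mean was 150.0 on every array. They are compared only within a probe set. DUSP6, a gene switched on by the receptor's pathway, averaged 68.1 ± 7.23 in erlotinib-treated PC9 cells and 1358 ± 272 in PC9 cells in DMSO (SD, n = 3 each). In HCC827 it averaged 366 ± 42.3 with erlotinib and 1252 ± 68.4 in DMSO. All 6 epithelial markers were bright in each group, and summed leukocyte markers reached at most 34, being 11.2 to 13.4 in erlotinib-treated HCC827 cells, against 32 to 34 in HCC827 cells in DMSO. The sum of 4 endothelial markers was 653 to 705 in erlotinib-treated PC9 cells, against 895 to 988 in PC9 cells in DMSO, nearly all of it PECAM1, which fell by 0.71, and CDH5, which rose by 0.72. In HCC827 that sum was at most 19. The sum of 6 fibroblast markers, nearly all COL1A1 and LUM, was 384 to 467 in erlotinib-treated PC9 cells, against 79.4 to 107 in PC9 cells in DMSO. It was 624 to 690 in erlotinib-treated HCC827 cells, against 156 to 183 in HCC827 cells in DMSO. The ratio of 3′ to 5′ actin signal, a sign of RNA quality, was 3.03 ± 0.598 on the HCC827 erlotinib arrays, against 2.17 ± 0.0563 on the HCC827 DMSO arrays. In PC9 the ratio was 2.22 ± 0.271 with erlotinib and 2.18 ± 0.152 in DMSO. Where a call was lost with this ratio as a covariate, or without the HCC827 erlotinib arrays of replicates 2 and 3, the value is given beside it. The part of the endothelial, leukocyte and fibroblast markers in the results was not tested.

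In PC9, 24 of the 41 genes were lower with erlotinib, 4 were higher and 13 did not pass the test, so that 28 changed, against 64.7% of all genes tested. Of all genes tested in PC9, 28.3% were lower and 36.3% higher, so the listed genes leaned downward and the table slightly upward. With each array centred on its median the table leaned downward too, with 38.0% lower and 27.0% higher in PC9. In HCC827, 22 were lower, 2 higher and 17 did not pass, so that 24 changed, against 51.7% of all genes tested (19.5% lower and 32.2% higher). The median log2 change of the 41 was -0.33 in PC9 and -0.29 in HCC827, and that of all genes tested was 0.05 and 0.07. A change is the difference of mean log2(signal + 8), erlotinib minus DMSO, and a gene passed at a Benjamini-Hochberg adjusted p under 0.05 in limma's moderated test. In these bulk cultures fewer dividing cells and less RNA per cell cannot be told apart.

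The changes were small. The genes that fell did so by 1.16-fold to 1.93-fold in PC9 and by 1.13-fold to 2.79-fold in HCC827. The 4 that rose in PC9 did so by 1.26-fold to 1.73-fold, and the 2 that rose in HCC827 by 1.20-fold and 1.25-fold. With 8 added to the signal and 1 probe set per gene, CLSPN in HCC827 was the only change of at least 2-fold among the 41, a size reached by 13.0% of genes tested in PC9 and 7.23% in HCC827. With 1 added in place of 8, XRCC3 also reached that size in PC9 (a log2 change of -1.01), and other probe sets of FANCI, CHEK1, BARD1 and BRIP1 passed it. Without any test, the 3 erlotinib arrays lay wholly below the 3 DMSO arrays for 24 genes in PC9 and wholly above for 5, against 28.3% and 36.5% of genes tested. In HCC827 they lay below for 27 and above for 4, against 24.5% and 37.6% of genes tested. The lines share no control arrays. 21 genes fell in both lines (11.6% of genes tested were lower in both) and 1 rose in both (20.3% were higher in both). No listed gene passed in opposite directions, as few genes tested did (708 of 13185).

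**Figure D1:**
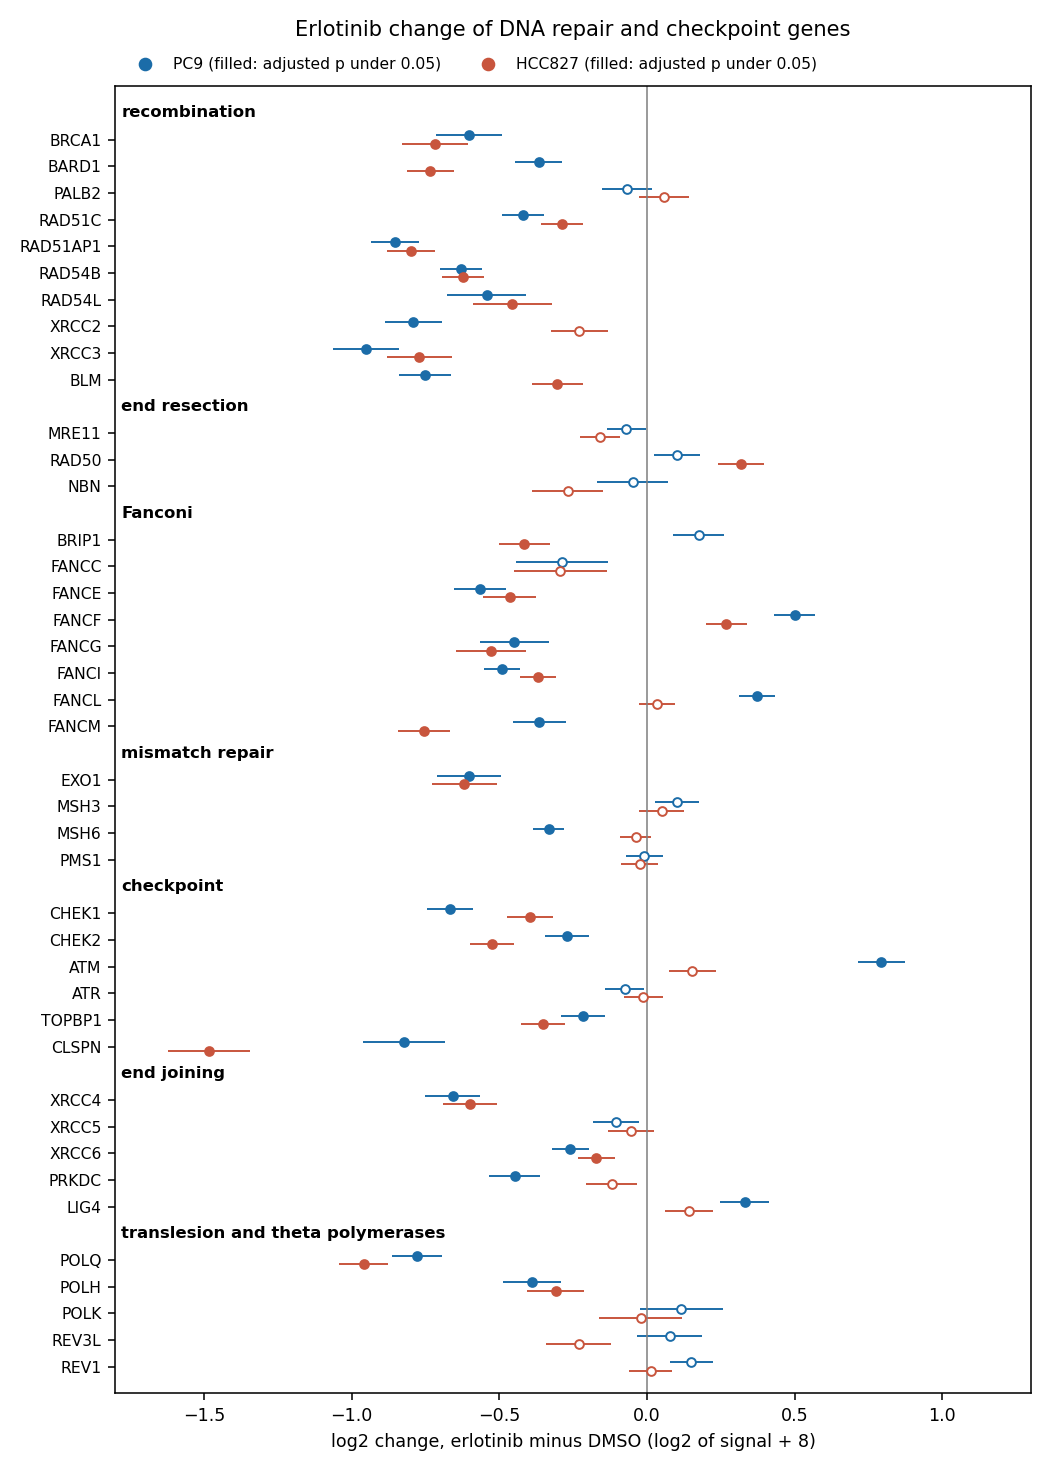
Log2 change, erlotinib minus DMSO, of each of the 41 measured genes (horizontal axis, difference of mean log2 of signal + 8), grouped by role, in PC9 (blue) and HCC827 (red). Bars are the standard error and filled points passed at adjusted p under 0.05; most filled points lie left of zero, ATM and FANCF stand to the right in PC9, and CLSPN in HCC827 lies farthest left.

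**Figure D2:**
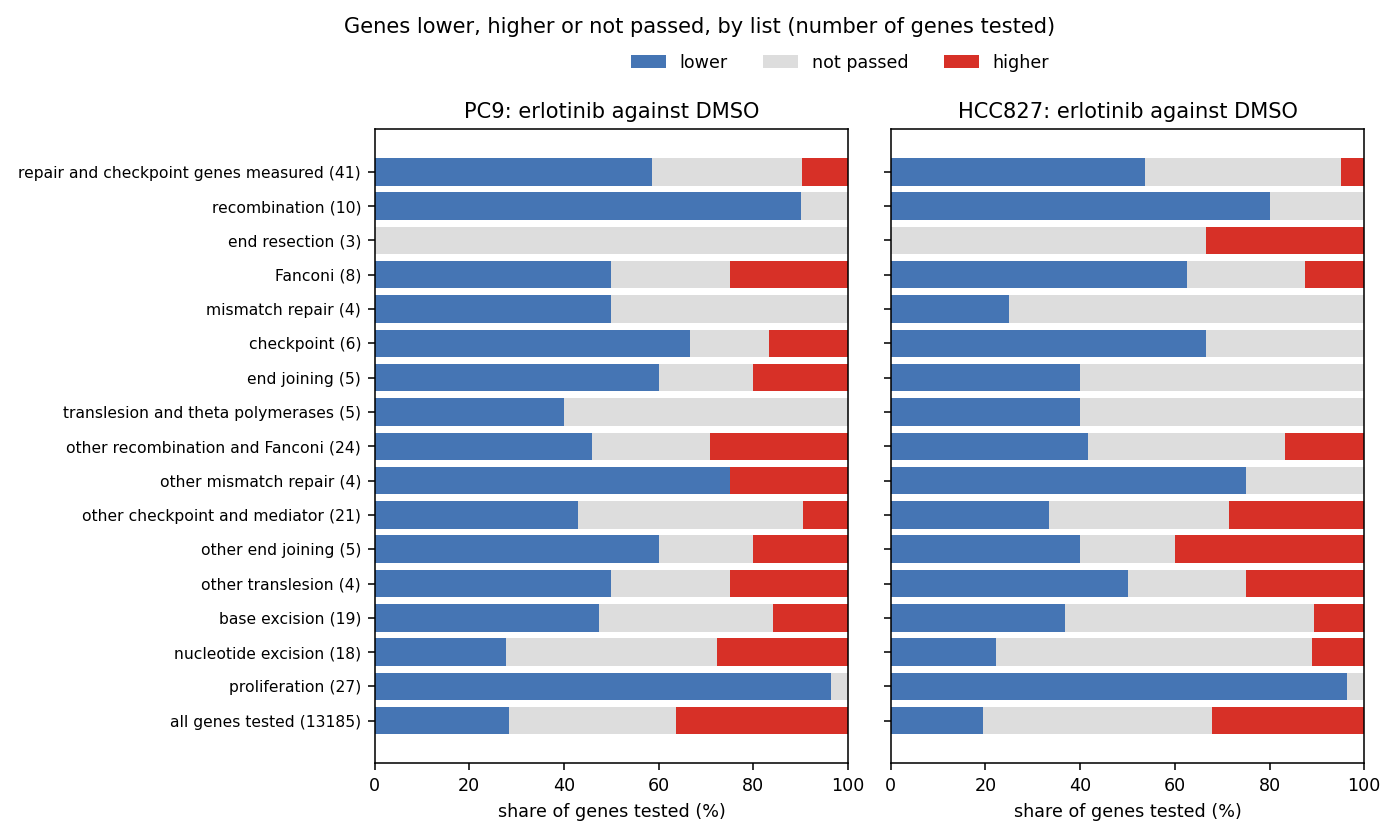
Share of genes tested (horizontal axis, percent) that were lower, higher or did not pass in each list, with the number of genes in parentheses, in PC9 and in HCC827. Recombination and proliferation genes have the largest lower shares among lists of 10 or more genes, and the last row gives all 13185 genes tested.

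Recombination was the role with the largest share of lower genes. In PC9, 9 of the 10 measured genes fell, against 28.3% of all genes tested, with a median log2 change of -0.62. In HCC827, 8 fell, against 19.5% of all genes tested, with a median of -0.54. None of the 10 passed as higher in either line, against 36.3% of all genes tested in PC9 and 32.2% in HCC827. RAD51AP1, which helps DNA strands pair during recombination, read 471, 445 and 547 in erlotinib-treated PC9 cells, against 808, 968 and 883 in PC9 cells in DMSO. It read 613, 593 and 669.9 in erlotinib-treated HCC827 cells, against 1072, 1133 and 1074 in HCC827 cells in DMSO. The groups did not overlap in either line. The log2 signal fell by 0.85 ± 0.08 in PC9 (SE, adjusted p = 1.26e-07) and by 0.80 ± 0.08 in HCC827 (adjusted p = 5.72e-07). XRCC3, which helps resolve recombination intermediates, read 83.1, 88.3 and 80.5 in erlotinib-treated PC9 cells, against 189.9, 144 and 178 in PC9 cells in DMSO. In HCC827 its signals were 85.5, 85.6 and 68 in erlotinib-treated HCC827 cells, against 149, 132 and 142 in HCC827 cells in DMSO. Again every erlotinib array was below every DMSO array. XRCC3 fell by 0.95 ± 0.11 in PC9 (adjusted p = 1.39e-06), the largest fall of the 41 there at 1.93-fold, and by 0.77 ± 0.11 in HCC827 (adjusted p = 2.60e-05).

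XRCC2, which acts early in recombination, read 65.4, 60.9 and 70.3 in erlotinib-treated PC9 cells, against 108, 134 and 116 in PC9 cells in DMSO. It read 85.8, 88.1 and 79.5 in erlotinib-treated HCC827 cells, against 104, 99.3 and 97.9 in HCC827 cells in DMSO. The gap between the groups was wide in PC9 and narrow, though without overlap, in HCC827. XRCC2 fell by 0.79 ± 0.10 in PC9 (adjusted p = 2.39e-06), and its HCC827 change of -0.23 ± 0.10 did not pass (adjusted p = 0.0594). That HCC827 call was at the threshold: without PC9 DMSO replicate 1 it was -0.23, adjusted p = 0.0498, and without PC9 DMSO replicate 2 it was -0.23, adjusted p = 0.0449. It also passed with quantile normalization (-0.29, adjusted p = 0.0185) and with arrays centred on their medians (-0.30, adjusted p = 0.0168). BLM, the helicase that takes apart crossed recombination intermediates, read 259, 279 and 262 in erlotinib-treated PC9 cells, against 487, 448 and 431 in PC9 cells in DMSO. In HCC827 its signals were 209, 256 and 246 in erlotinib-treated HCC827 cells, against 284, 322 and 276 in HCC827 cells in DMSO. BLM fell in both lines, by 0.75 ± 0.09 in PC9 (adjusted p = 1.25e-06) and by 0.30 ± 0.09 in HCC827 (adjusted p = 0.00828). The HCC827 fall did not pass without HCC827 DMSO replicate 2 (-0.24, adjusted p = 0.0526) or with the actin ratio as a covariate (-0.36, adjusted p = 0.0538).

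BRCA1 and BARD1 form a ubiquitin ligase that promotes recombination at breaks. BARD1 read 679, 689 and 689 in erlotinib-treated PC9 cells, against 788, 991 and 891 in PC9 cells in DMSO. It read 526, 449 and 508 in erlotinib-treated HCC827 cells, against 806, 799 and 875 in HCC827 cells in DMSO. All erlotinib arrays were the lower ones. BARD1 fell by 0.37 ± 0.08 in PC9 (adjusted p = 7.40e-04) and by 0.73 ± 0.08 in HCC827 (adjusted p = 1.20e-06), and its other 2 probe sets fell in both lines. BRCA1 fell by 0.60 ± 0.11 in PC9 and by 0.72 ± 0.11 in HCC827, without overlap, and its second probe set changed by -0.22 in PC9 without passing (adjusted p = 0.273) and fell by 0.75 in HCC827. RAD51C, which forms a complex with XRCC3, fell by 0.42 and 0.29, and RAD54B and RAD54L, motors that assist strand exchange, fell by 0.63 and 0.54 in PC9 and by 0.62 and 0.46 in HCC827. The RAD54L fall in HCC827 did not pass without HCC827 erlotinib replicate 1 (-0.32, adjusted p = 0.06) or with the actin ratio as a covariate (-0.47, adjusted p = 0.109), and that of RAD51C did not with the covariate (-0.19, adjusted p = 0.194). PALB2, which bridges BRCA1 to BRCA2, stood apart from this group with changes of -0.07 ± 0.08 in PC9 and 0.06 ± 0.08 in HCC827, neither of which passed.

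None of the 3 end resection genes measured passed as lower with 1 probe set per gene. Of all genes tested, 28.3% were lower in PC9 and 19.5% in HCC827, and 3 genes are too few to set against these shares. MRE11, RAD50 and NBN make up the complex that finds broken ends and starts to trim them. Their changes in PC9 were -0.07, 0.10 and -0.05, with overlapping arrays, and none passed. In PC9 another RAD50 probe set rose by 0.77 (adjusted p = 5.09e-05), the mean of its 3 passed as higher (0.35, adjusted p = 1.28e-04), and another MRE11 probe set fell by 0.41 (adjusted p = 0.0238). RAD50 read 156, 166 and 166 in erlotinib-treated HCC827 cells, against 132, 132 and 123 in HCC827 cells in DMSO, so that all erlotinib arrays were above the DMSO arrays. It rose by 0.32 ± 0.08 in HCC827 (adjusted p = 0.00278). This rise rested on 1 probe set, since the other 2 changed by 0.01 each, and it did not pass with the actin ratio as a covariate (0.28, adjusted p = 0.0885) or without HCC827 erlotinib replicates 2 and 3 (0.26, adjusted p = 0.0951). MRE11 and NBN lay below DMSO on all HCC827 erlotinib arrays, with changes of -0.16 ± 0.07 and -0.27 ± 0.12 that did not pass (adjusted p = 0.0559 and 0.0727). Another NBN probe set fell by 0.30 in HCC827 (adjusted p = 0.00543), and its remaining bright ones changed there by -0.22 and -0.11 without passing. NBN passed in PC9 without PC9 DMSO replicate 1 (-0.26, adjusted p = 0.00311), and in HCC827 without that array (-0.27, adjusted p = 0.00122) or without PC9 DMSO replicate 2 (-0.27, adjusted p = 0.0276). MRE11 passed in HCC827 without PC9 DMSO replicate 1 (adjusted p = 0.0497), PC9 erlotinib replicate 2 (adjusted p = 0.0301) or PC9 erlotinib replicate 3 (adjusted p = 0.0461), each at -0.16. In HCC827 both also passed as lower with the 6 HCC827 arrays alone (adjusted p = 0.0242 for MRE11 and 0.00156 for NBN) and with median centring (adjusted p = 0.0192 and 0.0124).

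Of 8 Fanconi genes measured, 4 fell and 2 rose in PC9, where 28.3% of all genes tested were lower and 36.3% higher. In HCC827, 5 fell and 1 rose, against 19.5% and 32.2% of all genes tested. FANCE, FANCG and FANCF belong to the core complex that ubiquitinates FANCD2 and FANCI. FANCE read 307, 285 and 331 in erlotinib-treated PC9 cells, against 536, 424 and 424 in PC9 cells in DMSO, and 285, 306 and 307 in erlotinib-treated HCC827 cells, against 433, 399 and 416 in HCC827 cells in DMSO. FANCG read 119, 139.9 and 128 in erlotinib-treated PC9 cells, against 181, 168 and 189 in PC9 cells in DMSO, and 156, 219 and 217 in erlotinib-treated HCC827 cells, against 311, 290.2 and 257 in HCC827 cells in DMSO. Both were lower on every erlotinib array. FANCE fell by 0.57 ± 0.09 in PC9 (adjusted p = 3.65e-05) and by 0.47 ± 0.09 in HCC827 (adjusted p = 3.92e-04). FANCG fell by 0.45 ± 0.12 in PC9 (adjusted p = 0.00302) and by 0.53 ± 0.12 in HCC827 (adjusted p = 0.00129). FANCI, the partner of FANCD2, fell by 0.49 ± 0.06 in PC9 and by 0.37 ± 0.06 in HCC827, and its other 2 probe sets fell more, by 0.57 to 1.43.

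FANCF went the other way. It read 346, 324 and 325 in erlotinib-treated PC9 cells, against 252, 218 and 227 in PC9 cells in DMSO. It read 509, 503 and 505 in erlotinib-treated HCC827 cells, against 427, 417 and 411 in HCC827 cells in DMSO. Each erlotinib array was above each DMSO array of its line. FANCF rose by 0.50 ± 0.07 in PC9 (adjusted p = 7.95e-06) and by 0.27 ± 0.07 in HCC827 (adjusted p = 0.00365). Its second probe set rose by 0.47 in PC9 and changed by -0.04 in HCC827. The HCC827 rise did not pass with arrays centred on their medians (0.19, adjusted p = 0.0698), with the actin ratio as a covariate (0.25, adjusted p = 0.0829) or without HCC827 erlotinib replicates 2 and 3 (0.28, adjusted p = 0.0546). FANCL, the ubiquitin ligase subunit of the core complex, read 805, 728 and 725 in erlotinib-treated PC9 cells, against 547, 591 and 600.3 in PC9 cells in DMSO, without overlap. In HCC827 its signals were 1004, 1008 and 1074 in erlotinib-treated HCC827 cells, against 989, 1022 and 1002 in HCC827 cells in DMSO, and the groups overlapped. FANCL rose by 0.37 ± 0.06 in PC9 (adjusted p = 4.83e-05), and its HCC827 change was 0.03 ± 0.06 (adjusted p = 0.666).

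FANCM, the DNA translocase that brings the core complex to stalled forks, read 104, 85 and 93 in erlotinib-treated PC9 cells, against 128, 123 and 119 in PC9 cells in DMSO. It read 145, 145 and 137 in erlotinib-treated HCC827 cells, against 234, 239 and 265 in HCC827 cells in DMSO. FANCM fell by 0.36 ± 0.09 in PC9 (adjusted p = 0.00179) and by 0.75 ± 0.09 in HCC827 (adjusted p = 2.81e-06), and of its other 3 probe sets 2 fell in each line. BRIP1, a helicase that binds BRCA1, read 245, 259.6 and 202 in erlotinib-treated PC9 cells, against 199.6, 196 and 226 in PC9 cells in DMSO. In HCC827 its signals were 383, 382 and 377 in erlotinib-treated HCC827 cells, against 503, 504 and 524 in HCC827 cells in DMSO. The PC9 groups overlapped, whereas in HCC827 they were far apart. BRIP1 fell by 0.41 ± 0.09 in HCC827 (adjusted p = 8.15e-04), where its other probe set fell by 1.14. Its PC9 change of 0.17 ± 0.09 did not pass (adjusted p = 0.0899), but passed as a rise without PC9 DMSO replicate 3 (0.24, adjusted p = 0.0416) or PC9 erlotinib replicate 3 (0.28, adjusted p = 0.00719). FANCC, of the core complex, changed by -0.29 ± 0.16 in PC9 and -0.29 ± 0.16 in HCC827 and did not pass. Its PC9 change passed without PC9 erlotinib replicate 2 (-0.48, adjusted p = 0.00767) and its HCC827 change without PC9 erlotinib replicate 1 (-0.29, adjusted p = 0.031) or with the 6 HCC827 arrays alone (-0.29, adjusted p = 0.0171). With the mean of its 3 probe sets, the PC9 value had the opposite sign (0.23, adjusted p = 0.0389). The other bright FANCC probe set rose by 0.83 in PC9 (adjusted p = 6.47e-05) and changed by 0.17 in HCC827 without passing.

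In mismatch repair, EXO1, the exonuclease that removes the mismatched strand and also resects breaks, was the gene that fell in both lines. It read 242, 252 and 304 in erlotinib-treated PC9 cells, against 364, 375 and 491 in PC9 cells in DMSO. It read 288, 303 and 329 in erlotinib-treated HCC827 cells, against 478, 506 and 442 in HCC827 cells in DMSO. The arrays did not overlap. EXO1 fell by 0.60 ± 0.11 in PC9 (adjusted p = 1.42e-04) and by 0.62 ± 0.11 in HCC827 (adjusted p = 1.85e-04). MSH6, which recognises single mismatches, read 1806, 1701 and 1768 in erlotinib-treated PC9 cells, against 2143, 2173 and 2339.5 in PC9 cells in DMSO. In HCC827 its signals were 1284, 1379.8 and 1415 in erlotinib-treated HCC827 cells, against 1427, 1418 and 1342 in HCC827 cells in DMSO, with overlap. MSH6 fell by 0.33 ± 0.05 in PC9 (adjusted p = 3.91e-05) and changed by -0.04 ± 0.05 in HCC827 (adjusted p = 0.567), where a second bright probe set fell by 0.24. MSH3, which recognises larger loops, and PMS1, another mismatch repair gene, did not pass in either line, with changes between -0.03 and 0.10 and overlapping arrays. Other PMS1 probe sets rose, one by 0.98 in PC9 (adjusted p = 1.77e-04) and one by 0.36 in HCC827 (adjusted p = 0.0374). The 2 other MSH3 probe sets had negative changes in HCC827, and the mean of all 3 passed there (-0.21, adjusted p = 0.0227).

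Among checkpoint genes the 2 damage kinases and their mediators did not move alike. CLSPN encodes claspin, which brings CHEK1 to ATR at stalled forks. It read 114, 118 and 108 in erlotinib-treated PC9 cells, against 188, 269.7 and 174 in PC9 cells in DMSO. It read 114, 79.5 and 87.4 in erlotinib-treated HCC827 cells, against 277, 264 and 278 in HCC827 cells in DMSO. Erlotinib arrays were all lower, and 1 PC9 DMSO array stood above the other 2. CLSPN fell by 0.82 ± 0.14 in PC9 (adjusted p = 7.11e-05) and by 1.48 ± 0.14 in HCC827 (adjusted p = 2.21e-07) as a 2.79-fold fall. Its 2 other bright probe sets fell less, by 0.40 and 0.55 in PC9 and by 0.50 and 0.74 in HCC827. CHEK1 fell by 0.67 ± 0.08 in PC9 and by 0.40 ± 0.08 in HCC827 without overlap. Of its other 3 probe sets 2 fell in both lines, by 0.70 to 1.22, and 1 rose, by 0.35 in PC9 and 0.38 in HCC827. CHEK2, the kinase downstream of ATM, read 401, 444 and 457 in erlotinib-treated PC9 cells, against 561, 492 and 521 in PC9 cells in DMSO, and 164, 161 and 171 in erlotinib-treated HCC827 cells, against 248, 243 and 233 in HCC827 cells in DMSO. No array overlapped. CHEK2 fell by 0.27 ± 0.07 in PC9 (adjusted p = 0.00449) and by 0.52 ± 0.07 in HCC827 (adjusted p = 2.09e-05).

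ATM was the largest rise of the list with 1 probe set per gene. It read 339.5, 306 and 318 in erlotinib-treated PC9 cells, against 168, 194 and 184 in PC9 cells in DMSO. It read 214, 218 and 207 in erlotinib-treated HCC827 cells, against 179, 189.9 and 202 in HCC827 cells in DMSO. In both lines the erlotinib arrays were above the DMSO arrays, by a wide gap in PC9 alone. ATM rose by 0.79 ± 0.08 in PC9 (adjusted p = 2.38e-07), a 1.73-fold rise, and its HCC827 change of 0.15 ± 0.08 did not pass (adjusted p = 0.12). Of 3 other bright ATM probe sets, 2 rose in PC9, by 0.48 and 0.73, and 1 changed by -0.19. In HCC827 the probe set that rose by 0.73 in PC9 also passed as higher (0.36, adjusted p = 0.0193). The one that rose by 0.48 in PC9 changed there by 0.40 (adjusted p = 0.0561), and the remaining one by 0.02, without passing. Under alternative processing the PC9 rise of ATM ranged from 0.25 to 0.84. ATR, the kinase for stalled forks, changed by -0.08 ± 0.07 in PC9 and -0.01 ± 0.07 in HCC827, with overlap and without passing. TOPBP1, which activates ATR, fell by 0.22 ± 0.07 in PC9 (adjusted p = 0.0168) and by 0.35 ± 0.07 in HCC827. Its PC9 fall did not pass without PC9 DMSO replicate 3 (-0.20, adjusted p = 0.0534) or PC9 erlotinib replicate 2 (-0.20, adjusted p = 0.0523).

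**Figure D3:**
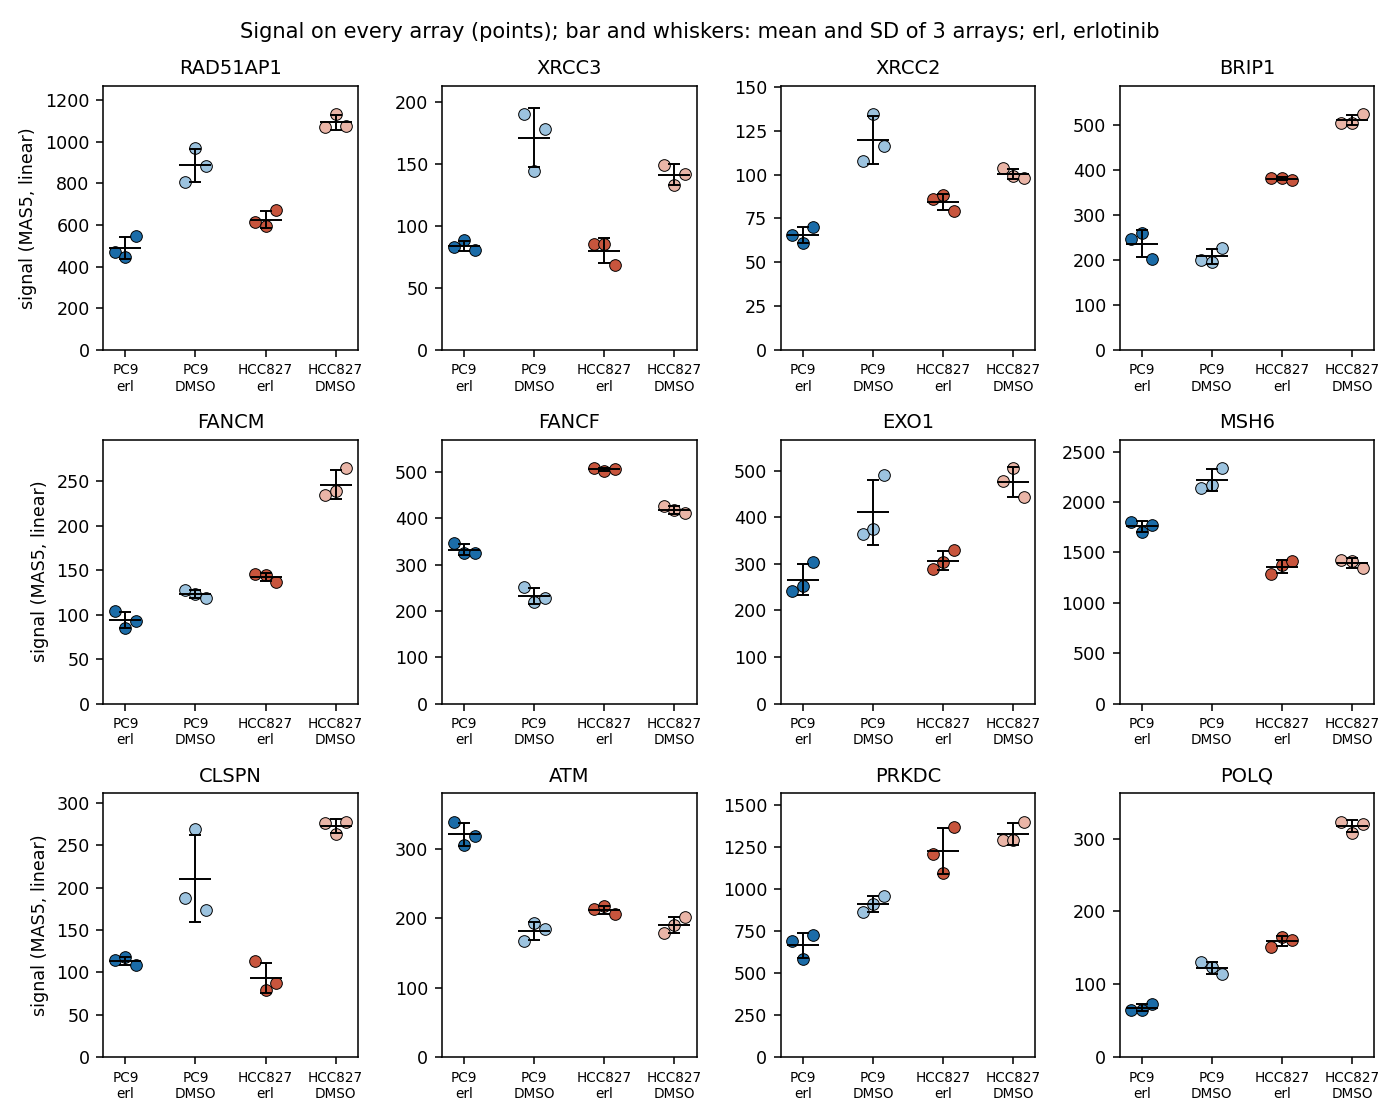
Linear MAS5 signal of 12 of the genes on every array (points), with the mean and SD of the 3 arrays of each group (bar and whiskers), for PC9 and HCC827 with erlotinib (erl) or in DMSO. RAD51AP1, XRCC3, EXO1, CLSPN and POLQ are lower with erlotinib in both lines, FANCF is higher in both, and XRCC2, BRIP1, MSH6, ATM and PRKDC differ more clearly in one line than in the other; each panel has its own scale from 0.

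In end joining, XRCC4, the scaffold of DNA ligase IV, fell and its ligase did not. XRCC4 read 185, 214 and 191 in erlotinib-treated PC9 cells, against 322, 306 and 315 in PC9 cells in DMSO. It read 291, 325 and 246 in erlotinib-treated HCC827 cells, against 435, 462 and 415 in HCC827 cells in DMSO. XRCC4 fell by 0.66 ± 0.09 in PC9 (adjusted p = 1.04e-05) and by 0.60 ± 0.09 in HCC827 (adjusted p = 4.98e-05), and its other 3 probe sets fell in both lines, by 0.58 to 0.68. LIG4, the ligase, rose by 0.33 ± 0.08 in PC9 (adjusted p = 0.00214), as did its second probe set by 0.49, and changed by 0.14 ± 0.08 in HCC827 (adjusted p = 0.163). With arrays centred on their medians the PC9 rise of LIG4 did not pass (0.18, adjusted p = 0.0843). PRKDC, the catalytic subunit of DNA-dependent protein kinase, read 689.7, 583 and 726 in erlotinib-treated PC9 cells, against 861, 909 and 956 in PC9 cells in DMSO. In HCC827 its signals were 1209, 1096 and 1367 in erlotinib-treated HCC827 cells, against 1288, 1289.5 and 1400.1 in HCC827 cells in DMSO, with overlap. PRKDC fell by 0.45 ± 0.09 in PC9 (adjusted p = 2.37e-04) and changed by -0.12 ± 0.09 in HCC827 (adjusted p = 0.257).

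XRCC6 and XRCC5 encode the Ku70 and Ku80 proteins that clamp broken ends. XRCC6 read 2255, 2679.5 and 2510.1 in erlotinib-treated PC9 cells, against 3087, 2836 and 2977 in PC9 cells in DMSO, and 1507, 1632 and 1548 in erlotinib-treated HCC827 cells, against 1670.5, 1851 and 1761 in HCC827 cells in DMSO. Its falls were small, at 0.26 ± 0.06 in PC9 (adjusted p = 0.00151) and 0.17 ± 0.06 in HCC827 (adjusted p = 0.0284). The mean of its 2 probe sets, one of them dim, changed by only -0.08 (adjusted p = 0.391) in PC9 and -0.04 (adjusted p = 0.695) in HCC827. The HCC827 fall of XRCC6 did not pass without HCC827 DMSO replicate 2 (-0.13, adjusted p = 0.124), HCC827 DMSO replicate 3 (-0.17, adjusted p = 0.0649), HCC827 erlotinib replicate 1 (-0.15, adjusted p = 0.0946) or HCC827 erlotinib replicate 3 (-0.17, adjusted p = 0.0671). It did not pass either with the actin ratio as a covariate (-0.11, adjusted p = 0.422), without HCC827 erlotinib replicates 2 and 3 (-0.22, adjusted p = 0.0712) or with no intensity trend (-0.17, adjusted p = 0.0773). XRCC5 changed by -0.11 in PC9 and -0.05 in HCC827, with overlap, and did not pass. Another XRCC5 probe set passed as lower in PC9 (-0.17, adjusted p = 0.0123) and in HCC827 (-0.17, adjusted p = 0.0143). A further one changed by 0.34 in PC9 and -0.22 in HCC827 without passing.

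POLQ, the polymerase of theta-mediated end joining, had the largest log2 changes of the 5 polymerases. It read 65.5, 65.5 and 73.5 in erlotinib-treated PC9 cells, against 130.3, 124 and 114 in PC9 cells in DMSO. It read 151, 165 and 161 in erlotinib-treated HCC827 cells, against 323, 308 and 320.3 in HCC827 cells in DMSO. The groups stood well apart in both lines. POLQ fell by 0.78 ± 0.08 in PC9 (adjusted p = 4.94e-07) and by 0.96 ± 0.08 in HCC827 (adjusted p = 8.98e-08). POLH, which copies past ultraviolet damage, read 25.3, 26.6 and 23.8 in erlotinib-treated PC9 cells, against 33.7, 33.7 and 39.3 in PC9 cells in DMSO, and 73.6, 73.9 and 81.9 in erlotinib-treated HCC827 cells, against 94, 97.9 and 97.9 in HCC827 cells in DMSO. POLH fell by 0.39 ± 0.10 in PC9 (adjusted p = 0.00227) and by 0.31 ± 0.10 in HCC827 (adjusted p = 0.014). Its 4 other bright probe sets did not share the PC9 fall, at -0.19 to 0.06, and the mean of all its probe sets did not pass there (-0.08, adjusted p = 0.401). In HCC827 the POLH fall did not pass without erlotinib replicates 2 and 3 (-0.36, adjusted p = 0.0669). POLK, REV1 and REV3L, the last the catalytic subunit of polymerase zeta, changed by 0.12, 0.15 and 0.08 in PC9 and by -0.02, 0.01 and -0.23 in HCC827, and did not pass. Without PC9 DMSO replicate 2, POLK (0.32, adjusted p = 0.0158) and REV1 (0.20, adjusted p = 0.0395) passed as higher in PC9. The mean of the 4 REV1 probe sets passed as higher in PC9 (0.18, adjusted p = 0.0203) and lower in HCC827 (-0.18, adjusted p = 0.0281).

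Whether the 2 lines responded differently was tested with the interaction term, the PC9 change minus the HCC827 change. It passed for 10 of the 41 genes, 6 positive and 4 negative, against 45.2% of genes tested. The positive ones were CLSPN at 0.66 ± 0.20 (SE, adjusted p = 0.0122), ATM at 0.64 ± 0.11 (adjusted p = 2.53e-04), BRIP1 at 0.59 ± 0.12 (adjusted p = 0.00105), FANCM at 0.39 ± 0.13 (adjusted p = 0.0183), BARD1 at 0.37 ± 0.11 (adjusted p = 0.0143) and FANCL at 0.34 ± 0.09 (adjusted p = 0.00437). CLSPN, FANCM and BARD1 fell in both lines and further in HCC827, BRIP1 fell in HCC827, and ATM and FANCL rose in PC9. The negative ones were XRCC2 at -0.56 ± 0.14 (adjusted p = 0.0035), BLM at -0.45 ± 0.12 (adjusted p = 0.00758), PRKDC at -0.33 ± 0.12 (adjusted p = 0.0372) and MSH6 at -0.29 ± 0.08 (adjusted p = 0.0046). These 4 fell in PC9, and BLM fell less in HCC827 while the other 3 did not pass there. The differences of CHEK1 (-0.27, adjusted p = 0.0569) and CHEK2 (0.25, adjusted p = 0.0594) did not pass. That of CHEK1 passed with quantile normalization (adjusted p = 0.0251), median centring (adjusted p = 0.0285) and the mean of its probe sets (adjusted p = 0.0158). That of CHEK2 passed with quantile normalization (adjusted p = 0.0373) and in the fit on means of all probe sets (adjusted p = 0.0353).

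BRIP1, XRCC2 and FANCL differed between the lines under every alternative processing tried. The ATM difference did not pass with the mean of its 6 probe sets (0.11, adjusted p = 0.501), and that of CLSPN did not with the mean of its 4 (0.16, adjusted p = 0.344). With the actin ratio as a covariate the difference did not pass for CLSPN (0.42, adjusted p = 0.187), BARD1 (0.34, adjusted p = 0.0852), BLM (-0.39, adjusted p = 0.0674), FANCM (0.41, adjusted p = 0.0629), MSH6 (-0.18, adjusted p = 0.113) or PRKDC (-0.18, adjusted p = 0.365). Nor did those 6 pass without HCC827 erlotinib replicates 2 and 3, at adjusted p = 0.0797 to 0.206. FANCM also did not pass with quantile normalization (0.25, adjusted p = 0.114), median centring (0.32, adjusted p = 0.073) or the mean of its 4 probe sets (0.20, adjusted p = 0.133), nor did PRKDC with quantile normalization (adjusted p = 0.0501), no filter on low signal (adjusted p = 0.0577), the mean of its 3 probe sets (adjusted p = 0.0863) or no intensity trend (adjusted p = 0.0751). Leaving out single arrays ended the FANCM call without HCC827 DMSO replicate 3 (0.34, adjusted p = 0.0573). It ended the PRKDC call without PC9 DMSO replicate 2 or 3, PC9 erlotinib replicate 2, HCC827 DMSO replicate 1 or 2, or HCC827 erlotinib replicate 1 or 3, with values of -0.33 to -0.24 and adjusted p = 0.0522 to 0.107.

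**Figure D4:**
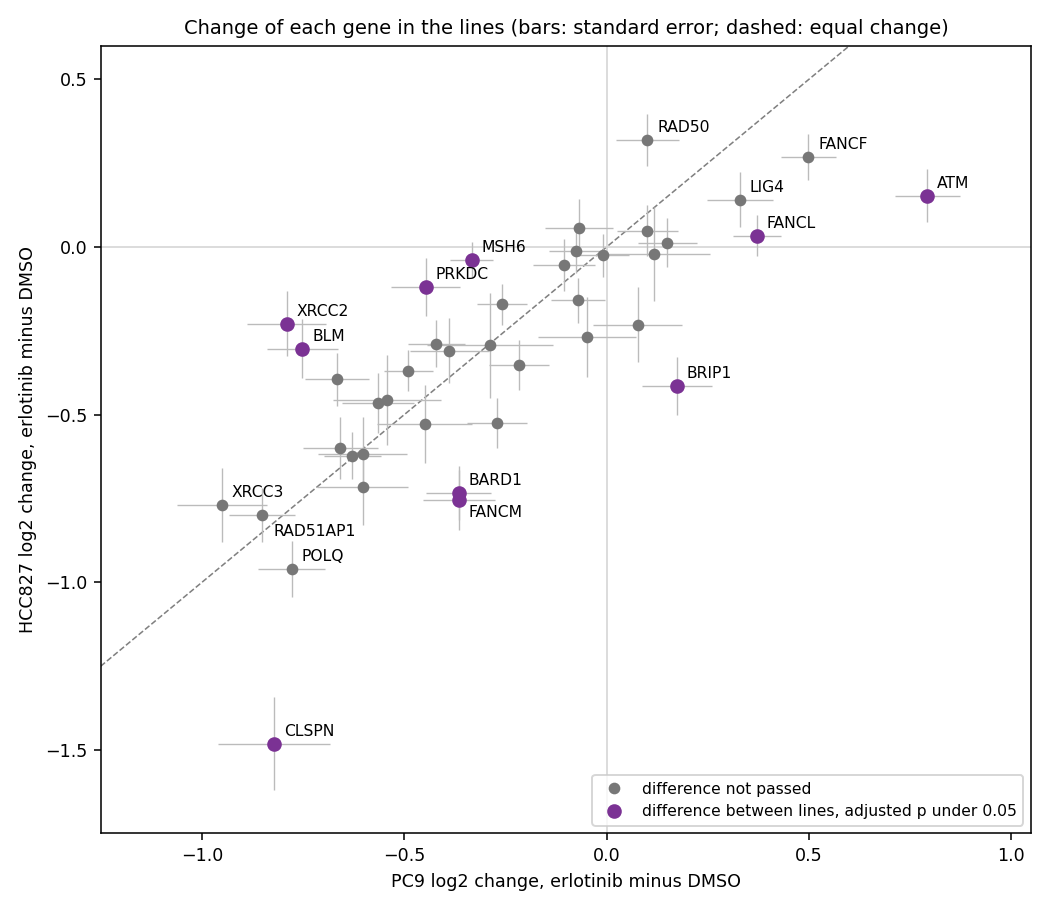
Log2 change with erlotinib of each of the 41 genes in PC9 (horizontal axis) against that in HCC827 (vertical axis), erlotinib minus DMSO, with standard errors as bars. Purple points are the 10 genes whose changes differed between the lines at adjusted p under 0.05, and the dashed line marks equal change; most points lie at the lower left and CLSPN lies lowest.

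In DMSO, 32 of the 41 genes differed between PC9 and HCC827, 12 higher and 20 lower in PC9, a share near that of all genes tested (76.2%, with 36.8% higher and 39.4% lower). The largest positive differences, PC9 minus HCC827, were those of RAD50 at 1.10 ± 0.08 (adjusted p = 1.58e-09), CHEK2 at 1.09 ± 0.07, RAD54B at 0.98 ± 0.07, XRCC6 at 0.75 ± 0.06 and MSH6 at 0.66 ± 0.05. The largest negative ones were those of PMS1 at -1.43 ± 0.06 (adjusted p = 3.04e-12), POLQ at -1.32 ± 0.08, BRIP1 at -1.27 ± 0.09, POLH at -1.27 ± 0.10 and FANCM at -0.95 ± 0.09. Several exceeded the erlotinib changes of the same genes in size. For POLQ even the erlotinib arrays of HCC827 read above the DMSO arrays of PC9, with 151, 165 and 161 in erlotinib-treated HCC827 cells against 130.3, 124 and 114 in PC9 cells in DMSO. For BRIP1 the same order held, at 383, 382 and 377 in erlotinib-treated HCC827 cells against 199.6, 196 and 226 in PC9 cells in DMSO. For ATM the difference in DMSO was -0.06 ± 0.08 and did not pass (adjusted p = 0.486).

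Genes of the same pathways outside the list are read against all genes tested, of which 28.3% were lower and 36.3% higher in PC9, and 19.5% and 32.2% in HCC827. Of 24 other recombination and Fanconi genes measured, 11 fell and 7 rose in PC9, and 10 fell and 4 rose in HCC827. RMI1, the partner of BLM, fell by 0.63 ± 0.07 in PC9 and 0.71 ± 0.07 in HCC827, and FANCB, of the Fanconi core complex, fell by 0.71 ± 0.11 in PC9 and changed by -0.09 ± 0.11 in HCC827. MUS81, a nuclease of branched DNA, rose by 0.77 ± 0.11 in PC9 and 0.35 ± 0.11 in HCC827, and WDR48, the cofactor of the deubiquitinase USP1, rose by 0.42 ± 0.09 and 0.77 ± 0.09. The MUS81 rise in HCC827 did not pass without HCC827 erlotinib replicate 3 (0.23, adjusted p = 0.0816), without HCC827 erlotinib replicates 2 and 3 (0.12, adjusted p = 0.489), with the actin ratio as a covariate (0.05, adjusted p = 0.809) or with median centring (0.27, adjusted p = 0.0642). FANCB passed as lower in HCC827 with the mean of its probe sets (-0.47, adjusted p = 0.00019). Of 21 other checkpoint genes, 9 fell and 2 rose in PC9, and 7 fell and 6 rose in HCC827. CDC25A, the phosphatase that CHEK1 restrains, fell by 1.13 ± 0.10 in PC9 and 0.75 ± 0.10 in HCC827. TIPIN, of the fork protection complex, fell by 1.11 ± 0.08 in PC9 and 0.77 ± 0.08 in HCC827.

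Of 4 other mismatch repair genes, 3 fell in each line. They included PCNA, the sliding clamp, which fell by 0.83 ± 0.06 in PC9 and 0.36 ± 0.06 in HCC827. LIG1, the ligase that seals replicated strands, fell by 0.34 ± 0.11 in PC9 and 0.73 ± 0.11 in HCC827, and its PC9 fall did not pass without PC9 erlotinib replicate 1 (adjusted p = 0.0506). Of 5 other end joining genes, 3 fell and 1 rose in PC9, and 2 fell and 2 rose in HCC827. APLF, which recruits the ligation complex, was higher on every erlotinib array, with means of 20.3 in erlotinib-treated PC9 cells and 6.33 in PC9 cells in DMSO, the second below the filter of 13. Its PC9 change therefore hung on the constant, at 0.98 ± 0.12 with 8 added, 1.53 with 1 and 0.45 with 32, and its HCC827 rise was 0.79 ± 0.12. The APLF changes differed between the lines with 1 added (0.66, adjusted p = 0.0385) and not with 8 (adjusted p = 0.376). DCLRE1C, the Artemis nuclease, fell by 0.57 ± 0.08 in PC9 and 0.34 ± 0.08 in HCC827. The mean of the DCLRE1C probe sets did not pass in PC9 (-0.10, adjusted p = 0.2) or in HCC827 (-0.13, adjusted p = 0.113), and the HCC827 fall did not pass with the actin ratio as a covariate (-0.30, adjusted p = 0.0697). POLM, a gap-filling polymerase, fell by 0.41 ± 0.13 in PC9 and rose by 0.67 ± 0.13 in HCC827, though the fall did not pass without PC9 erlotinib replicate 1 (adjusted p = 0.0662) and the rise did not pass without HCC827 erlotinib replicates 2 and 3 (adjusted p = 0.0673). Of 4 other translesion genes, 2 fell and 1 rose in each line. RAD18, the ubiquitin ligase that starts translesion synthesis, fell by 0.74 ± 0.09 in PC9 and 0.51 ± 0.09 in HCC827, PCLAF, a PCNA-binding protein, by 0.67 ± 0.07 and 0.75 ± 0.07, and POLI, a translesion polymerase, rose by 0.73 ± 0.09 and 0.41 ± 0.09. The POLI rise in HCC827 did not pass without HCC827 erlotinib replicates 2 and 3 (0.31, adjusted p = 0.0695).

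Proliferation genes were lower as well. Of 27 replication and mitosis genes, 26 fell in PC9 and 26 in HCC827, against 28.3% and 19.5% of all genes tested. Their median log2 changes were -0.77 and -0.51, compared with -0.33 and -0.29 for the 41 repair and checkpoint genes. MKI67, a marker of dividing cells, fell by 0.85 ± 0.09 in PC9 and 0.83 ± 0.09 in HCC827, and TOP2A, the topoisomerase of dividing cells, by 0.53 ± 0.06 and 0.33 ± 0.06. GINS2 and CDC6, which assemble replication forks, fell by 1.36 ± 0.07 and 1.20 ± 0.08 in PC9 and by 0.68 ± 0.07 and 0.80 ± 0.08 in HCC827. CDT1, a licensing factor, and E2F8, a repressor of the E2F family, fell by 1.08 ± 0.15 and 0.94 ± 0.09 in PC9 and by 1.18 ± 0.15 and 1.37 ± 0.09 in HCC827. The part of the proliferation genes in the repair gene changes was not tested.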

How the data were processed

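The values were deposited by the authors as microarray signal intensities, 1 column for each of 12 arrays and 54675 probe sets. They were computed with MAS5, per the submitters' processing notes (its version is not stated in the sources used here), and the deposited intensity values are on a linear scale with a trimmed mean of 150.0 on each array. RNA was amplified before labelling, per the labels' protocols. Of the probe sets, 41091 had 1 gene symbol, 1801 several and 11721 none, and 62 were controls. Groups were taken from the sample titles.

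From these intensities, log2(signal + 8) was computed, each gene was represented by its brightest single-symbol probe set (mean over 12 arrays), and genes with a group mean signal of 13 or more, the median signal over the table, were kept. limma 3.58.1 in R 4.3.3 (lmFit, eBayes with trend) fitted all 12 arrays and 13185 genes, with Benjamini-Hochberg adjustment over all of them and a threshold of 0.05. The method was tested on simulated data. The number of arrays limits the precision. Same-numbered replicates did not pair: the correlations of their deviations were -0.25 to 0.13, with 1 of 6 pairs over 0.1, so no block was used. No 2 arrays held identical values.

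The listed genes, roles and comparison lists were chosen with earlier results of these data known. Array values are given for the 2 genes with the largest passed changes of each role in each line and for every gene whose change differed between the lines, and up to 2 genes per line are named from each comparison list, with PCNA, PARP1, MKI67, TOP2A and DUSP6. Alternatives were other constants (1 and 32), quantile normalization, median centring, other filters, the mean of all probe sets, no trend, each line alone, the actin ratio as covariate, a replicate block and leaving out arrays.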

Additional observations from a re-analysis of the deposited data

Results flagged for a closer look

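The change with erlotinib differed between the lines for 10 of the 41 genes, against 45.2% of genes tested. The test was of the interaction term, the PC9 change minus the HCC827 change on the log2 scale. Of the 10, only BRIP1, XRCC2 and FANCL passed under every alternative processing tried. CLSPN differed by 0.66, with changes of -0.82 in PC9 and -1.48 in HCC827. ATM differed by 0.64, with 0.79 in PC9 and 0.15 in HCC827. BRIP1 differed by 0.59, with 0.17 in PC9 and -0.41 in HCC827. FANCM, BARD1 and FANCL differed by 0.39, 0.37 and 0.34. XRCC2 differed by -0.56, with -0.79 in PC9 and -0.23 in HCC827. BLM, PRKDC and MSH6 differed by -0.45, -0.33 and -0.29. With 3 arrays a group, single arrays were not tested as outliers.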

How the results depend on the processing

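The counts of genes lower with erlotinib stayed within 1.5 times of 24 in PC9 and 22 in HCC827 under each alternative, and no call that passed changed direction among the genes whose array values are given. With a constant of 32 the median change in PC9 was -0.26, and with quantile normalization that in HCC827 was -0.34. Centring each array on its median shifted the median of all genes by -0.15 in PC9 and by -0.07 in HCC827. All genes were then 38.0% lower and 27.0% higher in PC9 and 24.2% lower and 24.6% higher in HCC827, and the medians of the 41 were -0.48 and -0.37, with 1 gene higher in HCC827. MRE11, FANCC, ATR and XRCC5 then passed as lower in PC9, and XRCC2, MRE11, NBN and REV3L in HCC827. With the mean of all probe sets, 7 genes were higher in PC9 and 0 in HCC827 (0 also at an unadjusted limma p under 0.05), with medians of -0.27 and -0.23, and 15 differed between the lines. The differences gained there were those of BRCA1 (0.32, adjusted p = 0.00765), FANCI (-0.33, adjusted p = 0.00343), FANCF (0.37, adjusted p = 0.0151) and REV1 (0.36, adjusted p = 0.00468). LIG4, FANCC, RAD50, CHEK1 and CHEK2 were also gained, and ATM, CLSPN, FANCM and PRKDC were lost. With the actin ratio as covariate, 12.1% of all genes tested were lower and 19.4% higher in HCC827, in place of 19.5% and 32.2%. Of the listed genes, 0 were then higher in HCC827 (2 at an unadjusted limma p under 0.05) and 5 differed between the lines. Their HCC827 median was -0.35. Without HCC827 erlotinib replicates 2 and 3 the HCC827 median of the listed genes was -0.36. The cause of these shifts was not tested. Leaving out 1 array at a time gave 28 to 30 changed genes in PC9 and 22 to 27 in HCC827, medians of -0.35 to -0.29 in PC9 and -0.33 to -0.26 in HCC827, 9 to 13 differences between the lines and 28 to 32 in DMSO. A replicate block, for numbers that did not pair, gave 28 changed genes in PC9, 24 in HCC827 and 10 differences, as without it, and 29 in place of 32 in DMSO. Depth has no counterpart in these signals, and probe sets near the median signal of 11.1 to 14.5 are the least certain.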

Other observations

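Base and nucleotide excision repair, which mend damaged bases and bulky lesions, were outside the list. Of 19 base excision genes, 9 fell and 3 rose in PC9, and 7 fell and 2 rose in HCC827. Of all genes tested, 28.3% were lower and 36.3% higher in PC9, and 19.5% and 32.2% in HCC827. NTHL1 and NEIL3, glycosylases for oxidised bases, fell by 1.13 ± 0.15 and 0.95 ± 0.08 in PC9 (SE) and NEIL3 by 0.73 ± 0.08 in HCC827, where NTHL1 changed by -0.25 ± 0.15 without passing. PARP1, the sensor of strand breaks, fell by 0.80 ± 0.09 in PC9 and changed by 0.10 ± 0.09 in HCC827, and the changes differed between the lines by -0.91 ± 0.12 (limma, adjusted p = 1.74e-05). OGG1, the glycosylase for oxidised guanine, rose by 0.65 ± 0.15 in PC9 and fell by 0.68 ± 0.15 in HCC827, although the HCC827 fall did not pass with the mean of all probe sets (-0.10, adjusted p = 0.336) or with the actin ratio as covariate (-0.45, adjusted p = 0.131).

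Of 18 nucleotide excision genes, 5 fell and 5 rose in PC9, and 4 fell and 2 rose in HCC827, so that the lower shares were near those of all genes tested. ERCC6, which couples repair to transcription, rose by 1.45 ± 0.12 in PC9 and changed by 0.08 ± 0.12 in HCC827, a difference of 1.37 ± 0.17 (adjusted p = 6.37e-06). ERCC8, its partner in that pathway, fell by 0.52 ± 0.08 in PC9 and 0.61 ± 0.08 in HCC827, and GTF2H3, a subunit of the TFIIH helicase complex, fell by 0.69 ± 0.11 and 0.44 ± 0.11. The GTF2H3 fall in HCC827 did not pass without HCC827 erlotinib replicates 2 and 3 (-0.40, adjusted p = 0.0541). DDB2, which recognises ultraviolet damage, changed by -0.04 ± 0.10 in PC9 and fell by 0.66 ± 0.10 in HCC827, a difference of 0.61 ± 0.14 (adjusted p = 0.00259).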
